A study of Mus musculus with 30 samples.

Results

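Liver RNA of 5 LFABP-/- and 5 WT mice was compared after a high-fat diet (HFD). These 10 libraries are the liver libraries among the 30 of the series, chosen by their tissue label, and the other 20 came from inguinal white (iWAT) and interscapular brown adipose tissue (iBAT) of the same mice. The LFABP-/- mice lack liver fatty acid-binding protein, encoded by Fabp1, in the whole body, so a difference in the liver cannot be told apart from one that follows a change in the intestine or in body fat. All mice were male, on a C57Bl/6J background, entered the diet at 2 months of age, were fed 45 kcal % fat for 12 weeks and were food deprived for 4 h before tissue collection. The WT mice were the controls, and each library came from 1 mouse. The liver libraries of 3 LFABP-/- and 2 WT mice carry the prefix G32, and the other liver libraries carry G30. In iWAT the libraries of those 2 WT mice carry G30, and that of LFABP-/- replicate 2 carries G3. Tissues were matched to mice by the M number in the library names alone, and the labels do not settle the match where the prefixes differ. Alb, the main plasma protein made by hepatocytes, was the most abundant gene in every liver library, and the hepatocyte regulator Hnf4a ranged over 274.7 to 351.6 in LFABP-/- livers and 293.8 to 414.7 in WT livers.

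LFABP is a small, very abundant protein of hepatocytes and enterocytes that binds long-chain fatty acids, fatty acyl-CoA and other lipids in the cytosol. It is known for carrying these ligands toward oxidation, esterification and the nucleus, where fatty acids activate the receptor PPARα. The liver takes up fatty acids, burns or esterifies them, exports triglyceride in lipoproteins, and turns cholesterol into bile acids, so the results below follow those roles.

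Values are per gene and library on the TPM scale, where each library sums to about 999967.3 to 999983.4 and a gain in some genes lowers the value of others. Mitochondrially encoded genes took 16.9 to 18.1% of the value in LFABP-/- livers and 12.1 to 15.1% in WT livers, and the median log2 fold change of all 11629 genes tested was -0.10. Long genes were lower than short ones: the median log2 fold change was 0.01 in the shortest and -0.19 in the longest of 6 groups of equal size by exonic length. WT replicates 5 and 2 stood apart from the other libraries on the first principal component, which held 36.9% of the variance. Results are therefore also given after median-ratio scaling, which sets the median gene to no change, and without WT replicates 2 and 5. The part of RNA composition, gene length and these libraries in the results was not tested.

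Of the genes tested, 358 (3.08%) were higher and 1611 (13.9%) lower in LFABP-/- livers at an adjusted p under 0.1, which is the threshold for "rose" and "fell" throughout. After median-ratio scaling 1160 (9.98%) were higher and 837 (7.20%) lower, so the share of calls that were higher moved to 58.1%, against 18.2% on the deposited scale. Both scalings called 357 genes higher and 837 lower. All 5 LFABP-/- livers lay above all 5 WT livers for 163 genes (1.40%) and below them for 1004 genes (8.63%). For such genes the exact permutation test over every assignment of the livers to 2 groups of 5 gives p = 0.0079, two-sided, the smallest it can give. The count depended on single mice: without WT replicate 2, 111 genes were higher and 635 lower, without LFABP-/- replicate 4, 145 and 953, and without LFABP-/- replicate 5, 171 and 883. Without WT replicates 2 and 5 together, 271 were higher and 652 lower. Of 185 called genes followed here, 110 lost the call without WT replicate 2, and 112 lost it without WT replicates 2 and 5 together. The call was kept for 71 whichever library was left out. Within the G30 libraries alone and the G32 libraries alone, few genes passed (34 and 22), and the log2 fold changes in G30 and G32 were -8.71 and -13.79 for Fabp1, 0.75 and 0.73 for Slc25a15, 1.45 and 1.15 for Wdfy1 and 1.3 and 0.89 for Nnt. Of the called genes given by mouse below, those whose log2 fold change was over 2 times as large in G30 as in G32 were Hspa5 (1.35 and 0.49), G6pc (0.88 and 0.4), Nr4a1 (2.46 and 1.17) and Klb (-1.21 and -0.58), and those over 2 times as large in G32 were Thrsp, Acly and Ndufb3.

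**Figure D1:**
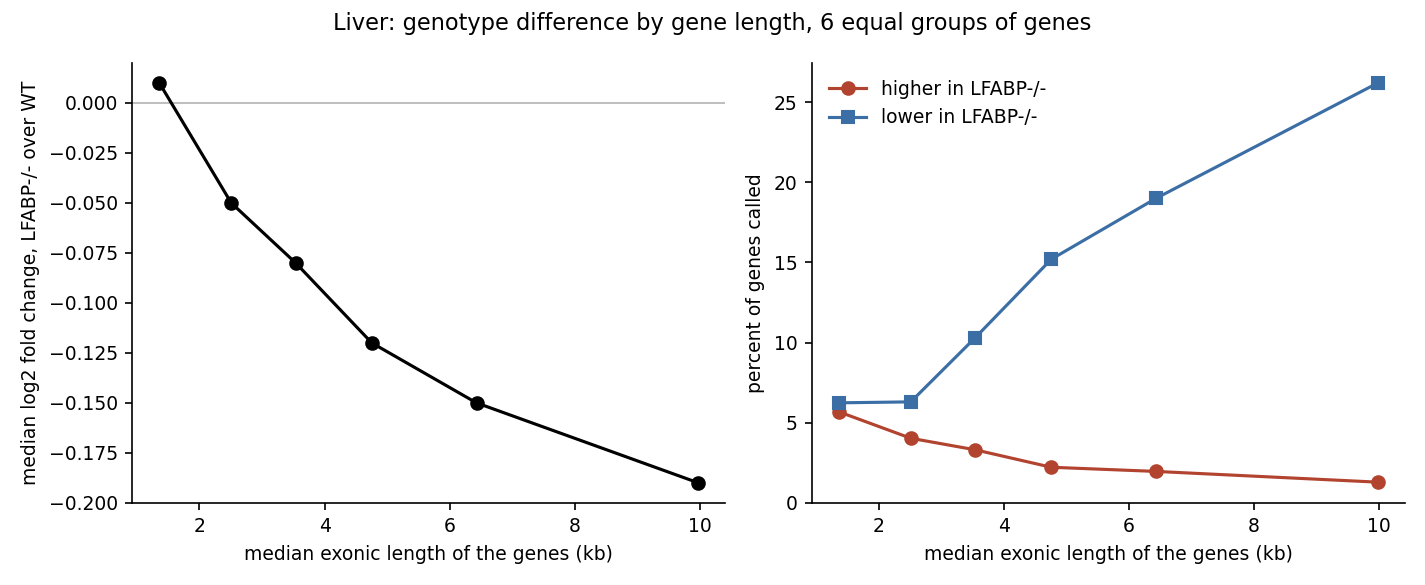
Median log2 fold change of LFABP-/- over WT livers (left) and the percent of genes called higher or lower in LFABP-/- livers (right) against the median exonic length in kb of 6 equal groups of tested genes. The share called lower was 26.2% in the longest group and 6.24% in the shortest, and the share called higher was 1.29% in the longest group and 5.68% in the shortest.

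Fabp1 was close to absent from LFABP-/- livers. Its values were 51.8, 13.7, 0.3, 0.6 and 0.2 in LFABP-/- livers, against 12672.1, 12697.6, 9165.5, 11860.2 and 12327.2 in WT livers. The groups were far apart (log2 fold change -11.74 ± 1.07 (SE), adjusted p = 0.000986), but LFABP-/- replicates 1 and 2, both with the G30 prefix, had more signal than the other LFABP-/- livers, in which it was at most 0.6. The 250 bases before the Fabp1 start (RefSeq, GRCm38.p6; chr6:71199629-71199878, + strand) are shown because this gene defines the comparison, with a match to AGGNCA, 1 base and AGGNCA, the spaced repeat bound by PPARα with its partner RXR, in capitals on the opposite strand:

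Fabp1: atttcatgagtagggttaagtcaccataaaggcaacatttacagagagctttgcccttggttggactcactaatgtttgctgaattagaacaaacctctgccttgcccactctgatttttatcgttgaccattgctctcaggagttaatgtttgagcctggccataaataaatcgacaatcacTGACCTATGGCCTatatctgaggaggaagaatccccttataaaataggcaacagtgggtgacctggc

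Of 32851 promoter windows of this length in the table, 111 (0.338%) held that motif on either strand. Among the 30 tested PPARα target genes with a window, Fabp1 was the 1 with a match, which describes the letters and no binding.

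Most other cytosolic lipid carriers did not pass the test. Of the list, 1 rose and 1 fell of 19 tested (median log2 fold change -0.03), and the member that fell was Fabp1 itself. The share was 5.26% each way, against 3.08% higher and 13.9% lower of all genes. Fabp7, the brain-type family member, was low: 7, 8.2, 7.8, 6.6 and 6.6 in LFABP-/- livers, against 3.9, 3.6, 3.6, 2.6 and 7.5 in WT livers. It was higher in LFABP-/- livers (log2 fold change 0.78 ± 0.21 (SE), adjusted p = 0.0422), the call was lost without WT replicate 2 (adjusted p = 0.108), and the groups overlapped through WT replicate 5. The intestinal-type Fabp2 averaged 206.7 in LFABP-/- and 177.1 in WT livers (adjusted p = 0.289). Fabp5, the epidermal-type member, spread widely (20.4, 18.4, 10, 8.5 and 75.1 in LFABP-/- livers, against 76.6, 45.6, 67.6, 27.5 and 20.3 in WT livers) and the groups overlapped (adjusted p = 0.212). The acyl-CoA carrier Dbi averaged 860.8 in LFABP-/- and 774.1 in WT livers (adjusted p = 0.51) and the sterol carrier Scp2 2449 in LFABP-/- and 2505 in WT livers (adjusted p = 0.82).

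The gene with the smallest p was Gm44427, an unnamed gene on chr6:71164799-71166119 that ends 33.7 kb before Fabp1 on the same strand. It had values of 37.5, 43.4, 33.3, 45.1 and 30.6 in LFABP-/- livers, against 0.8, 3, 0.3, 1 and 0.7 in WT livers. Every LFABP-/- liver was above every WT liver (log2 fold change 4.71 ± 0.31 (SE), adjusted p = 9.07e-05). In iBAT its values were at most 0.7 in LFABP-/- and 0.1 in WT mice, and in iWAT at most 0.6 in LFABP-/- and 0.7 in WT mice.

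Apart from Fabp1, 39 genes within 10 Mb of it were tested in the liver, and 3 were higher and 5 lower, 20.5% against 16.9% of all genes. The higher ones were Gm44427, Gm38832 (1.44, adjusted p = 0.00822) and Krcc1 (0.39, adjusted p = 0.0846). The lower ones were Elmod3 (-0.65), the trans-Golgi protein gene Tgoln1 (-0.57), the ubiquitin ligase gene Kcmf1 (-0.34), the splicing gene Usp39 (-0.28) and Suclg1 (-0.23), a subunit of succinyl-CoA synthetase, all as log2 fold changes. Elmod3, Tgoln1, Gm38832, Gm44427 and Krcc1 were also called after median-ratio scaling.

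Of 6 tested genes known to differ between C57BL/6 substrains, 2 rose and 1, Nlrp12, fell (-0.81, adjusted p = 0.0777), a call that was lost after median-ratio scaling. These shares were 33.3% higher and 16.7% lower, against 3.08% and 13.9% of all genes. Nnt, the mitochondrial transhydrogenase that is partly deleted in C57BL/6J mice, had values of 40, 42.4, 44.9, 41.1 and 35.4 in LFABP-/- livers, against 17, 20.2, 12.9, 17.9 and 25.9 in WT livers. Wdfy1, an endosomal adaptor, had values of 11.7, 12.5, 11.2, 12.2 and 12.4 in LFABP-/- livers, against 3.7, 4.6, 4.1, 5 and 5.2 in WT livers. Neither gene's groups overlapped, with a log2 fold change of 1.13 for Nnt (adjusted p = 0.00822) and 1.32 for Wdfy1 (adjusted p = 9.07e-05). Wdfy1 was also higher in LFABP-/- iBAT (1.6 ± 0.09, adjusted p = 1.25e-05) and iWAT (1.36 ± 0.14, adjusted p = 0.00327), and Nnt in iBAT (0.9 ± 0.38, adjusted p = 0.0863) and iWAT (1.11 ± 0.15, adjusted p = 0.0162), as log2 fold change ± SE. Of all genes tested in those depots, 47.8% were called in iBAT and 1.45% in iWAT. Genotype and genetic background cannot be told apart at these genes.

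**Figure D2:**
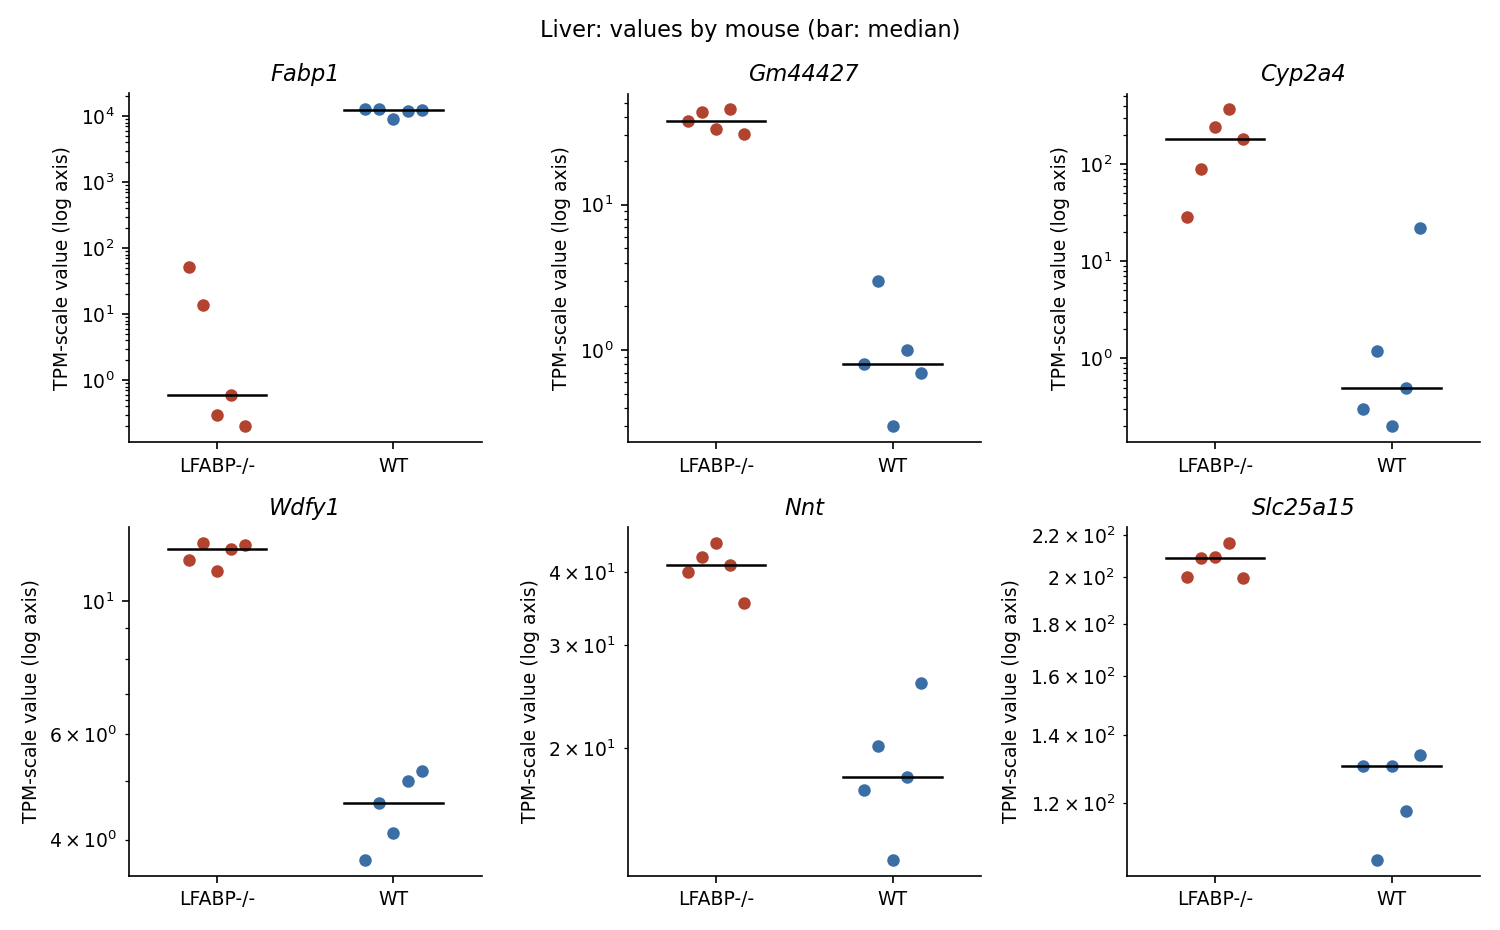
Values of 6 genes in the 5 LFABP-/- (red, left) and 5 WT (blue, right) livers on log axes of the TPM-scale value, with a bar at the median. For each of the 6 genes no LFABP-/- liver falls within the range of the WT livers, and Fabp1 alone is lower in LFABP-/- livers.

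Of called genes that averaged over 5 in LFABP-/- or WT livers and whose genotypes did not overlap, unnamed gene models left out, the largest increase was in Cyp2a4, a steroid 15α-hydroxylase that is higher in female mouse liver. Its values were 28.7, 89.4, 243.0, 365.6 and 180.1 in LFABP-/- livers, against 0.3, 1.2, 0.2, 0.5 and 21.8 in WT livers. All LFABP-/- livers were higher (log2 fold change 6.18 ± 0.95 (SE), adjusted p = 0.00967), and WT replicate 5 stood above the other WT livers. The near-identical Cyp2a5 overlapped between genotypes (113.1, 210.7, 367.5, 580.0 and 358.9 in LFABP-/- livers, against 457.4, 240.2, 453.0, 516.2 and 301.9 in WT livers, adjusted p = 0.512), and reads may have been split between these genes. Of the other genes with the largest increases, Lrtm1 (2.34, adjusted p = 0.0135) encodes a leucine-rich repeat membrane protein, Hectd2os (1.97, adjusted p = 0.00896) is an antisense RNA whose reads cannot be told from those of its partner gene without strand, Slc22a3 (1.26, adjusted p = 0.0162) is an organic cation transporter, Bmyc (1.19, adjusted p = 0.0128) a relative of Myc, Ppp1r14a (1.19, adjusted p = 0.0151) a phosphatase inhibitor and Cela1 (1.14, adjusted p = 0.0278) an elastase of the exocrine pancreas. Pnlip, the pancreatic lipase, was at most 0.1 in LFABP-/- and 0 in WT livers. Sco2, a copper chaperone for cytochrome oxidase, rose (1.24, adjusted p = 0.00896) together with Tymp (1.3, adjusted p = 0.0151), but the 2 genes overlap by 1916 bases and their reads may not be separable.

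By the same rule, with Fabp1 left out, the largest decreases were in Cyp3a11, Tff3 and Osgin1. Cyp3a11, a main drug- and bile acid-hydroxylating P450, had values of 18.3, 22.7, 26.4, 42.1 and 24 in LFABP-/- livers, against 90.8, 252.1, 66.2, 142.5 and 660.7 in WT livers. Tff3, a mucosal peptide also made in liver, had values of 127.1, 53.7, 40.3, 16.6 and 98.1 in LFABP-/- livers, against 198.3, 525.3, 463.9, 142.1 and 364.3 in WT livers. Osgin1, induced by oxidative stress, had values of 25.7, 15.7, 32.6, 18.5 and 16.4 in LFABP-/- livers, against 52.4, 59.8, 69.8, 51.6 and 89.8 in WT livers. None of these overlapped between genotypes, with log2 fold changes of -2.71, adjusted p = 0.0161 for Cyp3a11, -2.47, adjusted p = 0.022 for Tff3 and -1.57, adjusted p = 0.00822 for Osgin1. The other large decreases included the lectin Lgals4 (-1.4), Asap3 (-1.4), Adamtsl2 (-1.32), the interferon-inducible GTPase Irgm2 (-1.24), the sulfate donor synthase Papss1 (-1.19), the cystine transporter subunit Slc3a1 (-1.14) and the structural RNAs Rpph1 (-1.22) and Snord13 (-1.12), on the log2 scale.

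Few genes of fatty acid uptake and oxidation passed the test. Among carriers and acyl-CoA synthetases 0 rose and 1 fell of 17 tested (median log2 fold change -0.06), and the gene that fell was Acsm5 (-0.42, adjusted p = 0.0375). The uptake genes Cd36 (adjusted p = 0.753), Slc27a2 (adjusted p = 0.263) and Slc27a5 (adjusted p = 0.645) and the synthetase Acsl1 (adjusted p = 0.32) did not pass the test. In mitochondrial β-oxidation 1 rose and 3 fell of 27 tested (median log2 fold change -0.04). The counts of higher and lower genes were 5 and 2 after median-ratio scaling, 1 and 1 without WT replicates 2 and 5. The shares that rose and fell were 3.7% and 11.1% in β-oxidation and 0% and 5.88% in uptake and activation. Those of all genes were 3.08% and 13.9%, so the β-oxidation shares were near them. Cpt1a, which gates the entry of fatty acids into mitochondria, had values of 147.3, 182.2, 155.3, 148.8 and 110.0 in LFABP-/- livers, against 243.9, 226.1, 203.9, 166.7 and 206.0 in WT livers. It fell (log2 fold change -0.5 ± 0.14 (SE), adjusted p = 0.0482), with overlap through WT replicate 4, and the call was lost after median-ratio scaling (adjusted p = 0.109) and without WT replicate 2 (adjusted p = 0.124). Crat, a carnitine acetyltransferase (-0.7, adjusted p = 0.0511), and Mlycd, which removes the malonyl-CoA that inhibits Cpt1a (-0.43, adjusted p = 0.0162), fell, and the enoyl-CoA hydratase Echs1 rose (0.28, adjusted p = 0.0686).

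Ppara, the receptor that switches on fatty acid oxidation, was itself lower. Its values were 57.4, 62.1, 81.9, 52.7 and 30.1 in LFABP-/- livers, against 128.8, 112.8, 101.6, 95.2 and 63.9 in WT livers. The log2 fold change was -0.85, adjusted p = 0.0579, with LFABP-/- replicate 3 inside the WT range, and the call was lost after median-ratio scaling (adjusted p = 0.111) and without LFABP-/- replicate 4, WT replicate 1 or WT replicate 2 (adjusted p up to 0.144). Of its target genes 0 rose and 5 fell of 40 tested (median log2 fold change -0.09), Fabp1 and Ppara among them. The share that fell, 12.5%, was below the 13.9% of all genes tested and the median was near that of all genes (-0.10), and the counts were 1 and 2 after median-ratio scaling, 1 and 3 without WT replicates 2 and 5. Other commonly measured targets did not pass: Cyp4a14 (adjusted p = 0.931), Cyp4a10 (adjusted p = 0.972), Pdk4 (adjusted p = 0.547) and Fgf21 (adjusted p = 0.425). Of peroxisomal genes Ech1 (-0.42, adjusted p = 0.0424) and Hacl1 (-0.72, adjusted p = 0.0578) fell and none of 25 rose, and of 9 ketone genes Bdh2 (0.36, adjusted p = 0.0559) and Acat1 (0.3, adjusted p = 0.0702) rose. The share of peroxisomal genes that fell was 8%, against 13.9% of all genes. The share of ketone genes that rose was 22.2%, against 3.08% of all genes, and no ketone gene was called without WT replicates 2 and 5.

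Lipogenic genes varied between mice of both genotypes. In the list 3 rose and 2 fell of 30 tested (median log2 fold change 0.08), and the counts were 6 and 0 after median-ratio scaling, 1 and 1 without WT replicates 2 and 5. On the deposited scale 10% rose and 6.67% fell, against 3.08% and 13.9% of all genes. Acly, which makes cytosolic acetyl-CoA, had values of 196.4, 170.9, 377.8, 268.8 and 610.2 in LFABP-/- livers, against 234.6, 107.8, 105.8, 152.0 and 125.3 in WT livers. Thrsp, a lipogenic regulator, had values of 467.7, 377.3, 924.6, 1163.6 and 1683.2 in LFABP-/- livers, against 636.6, 199.2, 376.8, 410.0 and 111.4 in WT livers. Both rose (1.07, adjusted p = 0.0713 for Acly and 1.44, adjusted p = 0.097 for Thrsp, as log2 fold changes), but their groups overlapped, LFABP-/- replicate 5 was the highest for each, and the call of Acly was lost in 6 and that of Thrsp in 7 of the 10 fits that left out 1 library, with adjusted p up to 0.172 for Acly and 0.215 for Thrsp. The log2 fold changes within the G30 and G32 libraries were 0.4 and 1.52 for Acly and 0.21 and 2.51 for Thrsp, and those of Fasn -0.41 and 1.12. Fasn (adjusted p = 0.465), Scd1 (adjusted p = 0.154) and Srebf1 (adjusted p = 0.362) did not pass.

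Few triglyceride synthesis and droplet genes passed the test. Of triglyceride and phospholipid synthesis genes 3.33% rose and 10% fell, and of droplet and lipolysis genes 6.45% each way. Of all genes 3.08% rose and 13.9% fell. The counts were 4 and 2 in each list after median-ratio scaling. Without WT replicates 2 and 5 they were 0 and 1 for synthesis and 1 and 1 for droplets. The acyltransferase Agpat2 rose (0.35, adjusted p = 0.0476), while Mboat7 (-0.4, adjusted p = 0.0151), Lpcat3 (-0.49, adjusted p = 0.063) and Agpat3 (-0.28, adjusted p = 0.0589) fell among 30 tested. Agpat3 lost its call after median-ratio scaling (adjusted p = 0.231), and Agpat2, Agpat3 and Lpcat3 lost theirs without WT replicate 2. On droplets, Cideb (0.25, adjusted p = 0.0899) and the seipin gene Bscl2 (0.22, adjusted p = 0.0919) rose, and the lipases Pnpla2 (-0.63, adjusted p = 0.052) and Lipa (-0.47, adjusted p = 0.0381) fell among 31. Dgat2 (adjusted p = 0.407), Gpam (adjusted p = 0.388), Plin2 (adjusted p = 0.915) and Cidec (adjusted p = 0.714) did not pass.

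On the deposited scale, lipoprotein genes were the list with the most decreases for its size in lipid metabolism: 0 rose and 11 fell of 33 tested (median log2 fold change -0.17). The share that fell was 33.3%, against 31.2% of LXR targets and sterol export genes and 13.9% of all genes. After median-ratio scaling 2 of the 33 lipoprotein and 2 of the 16 LXR and sterol export genes fell, so this rank was not kept. The counts were 2 and 2 after median-ratio scaling, 0 and 5 without WT replicates 2 and 5, so most of these calls depended on the scale. Apob, the structural protein of very-low-density lipoprotein, had values of 665.1, 596.3, 656.3, 450.3 and 408.4 in LFABP-/- livers, against 798.1, 929.8, 802.0, 775.5 and 683.2 in WT livers. The groups did not overlap (log2 fold change -0.54 ± 0.15 (SE), adjusted p = 0.0465), but the call was lost after median-ratio scaling (adjusted p = 0.136) and without LFABP-/- replicate 4 or WT replicate 2 (adjusted p up to 0.123). Apom (-0.29, adjusted p = 0.061) and the receptor Lsr (-0.37, adjusted p = 0.0697) were still lower after median-ratio scaling, given here on that scale. Apoa1, Mttp, Lrp1, Scarb1 and Lcat fell on the deposited scale and were not called after median-ratio scaling.

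Several bile acid genes fell. Cyp7a1, the rate-limiting enzyme of bile acid synthesis, had values of 22.7, 43.9, 16.2, 36.3 and 27.7 in LFABP-/- livers, against 79.2, 115.0, 70.7, 79.3 and 60.8 in WT livers. Klb, the co-receptor through which FGF15 and FGF21 signal, had values of 8, 6.2, 11.4, 7.1 and 8.4 in LFABP-/- livers, against 18.5, 17.1, 15.4, 17.5 and 10.2 in WT livers. All LFABP-/- livers were below all WT livers for Cyp7a1 (log2 fold change -1.5 ± 0.25 (SE), adjusted p = 0.0116), and WT replicate 5 overlapped the LFABP-/- livers for Klb (log2 fold change -0.9 ± 0.18 (SE), adjusted p = 0.0178).

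Most sterol synthesis genes did not pass the test. In that list 0 rose and 2 fell of 30 tested (median log2 fold change 0.11), and the counts were 3 and 1 after median-ratio scaling, 1 and 1 without WT replicates 2 and 5, so more members were called lower on the deposited scale and more were called higher after median-ratio scaling. Scap, the escort protein of the SREBP factors, fell (-0.4, adjusted p = 0.0679), and the squalene epoxidase Sqle did not pass (adjusted p = 0.807). Among LXR targets and sterol export genes 0 rose and 5 fell of 16 tested (median log2 fold change -0.3), with Npc1 (-0.61, adjusted p = 0.0176), Pltp (-0.81, adjusted p = 0.0832), Abca1 (-0.42, adjusted p = 0.0938) and Nceh1 (-0.44, adjusted p = 0.0855), and the counts were 0 and 2 after median-ratio scaling, 0 and 2 without WT replicates 2 and 5. Among bile acid genes 1 rose and 8 fell of 34 tested (median log2 fold change -0.06), and the counts were 2 and 4 after median-ratio scaling, 1 and 5 without WT replicates 2 and 5. The shares that fell were 6.67% of sterol synthesis genes, 31.2% of LXR and sterol export genes and 23.5% of bile acid genes, against 13.9% of all genes. Besides Cyp7a1 and Klb, the oxysterol hydroxylase Cyp39a1 (-0.81, adjusted p = 0.0213), the transporters Slco1a4 (-0.66, adjusted p = 0.0567) and Abcc2 (-0.43, adjusted p = 0.075) and the FGF receptor Fgfr4 (-0.32, adjusted p = 0.0648) fell and Akr1c6 (0.53, adjusted p = 0.0631) rose, while Cyp8b1 (adjusted p = 0.95), the export pump Abcb11 (adjusted p = 0.113) and the uptake carrier Slc10a1 (adjusted p = 0.861) did not pass.

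**Figure D3:**
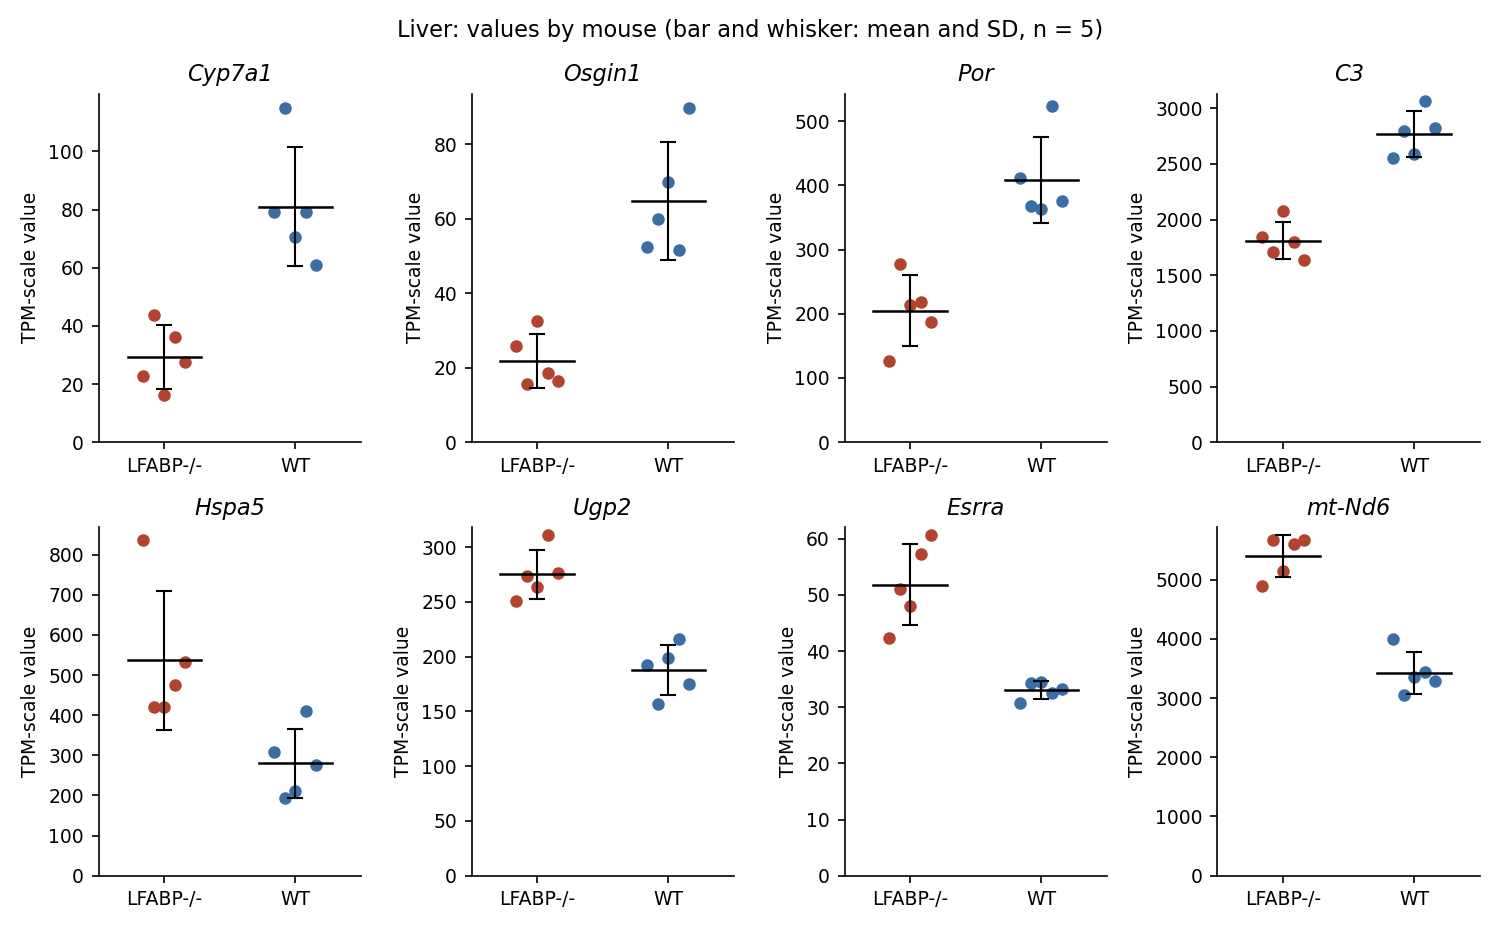
Values of 8 genes in the 5 LFABP-/- (red, left) and 5 WT (blue, right) livers on linear axes of the TPM-scale value that start at 0, with the mean and SD of each group. Cyp7a1, Osgin1, Por and C3 were lower in all LFABP-/- livers, and Hspa5, Ugp2, Esrra and mt-Nd6 were higher in all of them.

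More carbohydrate genes rose than fell. Of the list 7 rose and 1 fell of 43 tested (median log2 fold change 0.14), and the counts were 15 and 0 after median-ratio scaling, 3 and 0 without WT replicates 2 and 5. The share that rose was 16.3%, against 3.08% of all genes. Ugp2, which makes UDP-glucose for glycogen, had values of 250.8, 273.6, 263.9, 310.7 and 276.7 in LFABP-/- livers, against 192.2, 156.5, 198.7, 216.5 and 174.7 in WT livers. Ppp1r3b, the liver's glycogen-targeting phosphatase subunit, had values of 78.9, 67.2, 170.0, 100.8 and 91.9 in LFABP-/- livers, against 58.6, 32, 50.9, 66.2 and 40.1 in WT livers. Neither overlapped between genotypes, with log2 fold changes of 0.56, adjusted p = 0.0134 for Ugp2 and 1, adjusted p = 0.0375 for Ppp1r3b. The call of Ppp1r3b was lost without WT replicates 2 and 5 (adjusted p = 0.144). G6pc, which releases free glucose, had values of 562.6, 618.9, 711.1, 841.1 and 578.8 in LFABP-/- livers, against 289.1, 275.3, 413.3, 640.5 and 441.1 in WT livers. It rose (log2 fold change 0.74 ± 0.22 (SE), adjusted p = 0.0565), WT replicate 4 lay inside the LFABP-/- range, and the call was lost without LFABP-/- replicate 4, WT replicate 1 or WT replicate 2 (adjusted p up to 0.143). Pklr (adjusted p = 0.104) and Pck1 (adjusted p = 0.18) did not pass. In insulin signalling 1 rose and 5 fell of 29 tested (median log2 fold change -0.11). The share that fell, 17.2%, and the median were near those of all genes (13.9% and -0.10). The counts were 1 and 3 after median-ratio scaling, 0 and 2 without WT replicates 2 and 5. The receptor Insr (-0.46, adjusted p = 0.0203) and the binding protein Igfbp2 (-0.95, adjusted p = 0.0465) were lower and the regulatory subunit Pik3r1 (0.34, adjusted p = 0.0723) higher.

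Slc25a15, the mitochondrial ornithine carrier of the urea cycle, was among the most evenly raised genes. Its values were 200.1, 208.8, 209.5, 216.1 and 199.5 in LFABP-/- livers, against 130.4, 105.6, 130.6, 118.0 and 133.7 in WT livers. Every LFABP-/- liver was above every WT liver (log2 fold change 0.74 ± 0.08 (SE), adjusted p = 0.00295). Oat, which breaks down ornithine, had values of 1024.5, 1114.4, 1095.3, 1284.9 and 1044.8 in LFABP-/- livers, against 945.0, 446.5, 770.5, 818.9 and 306.4 in WT livers. It was higher in every LFABP-/- liver (log2 fold change 0.87 ± 0.27 (SE), adjusted p = 0.0677), but the call was lost without WT replicate 2 or any 1 LFABP-/- library (adjusted p up to 0.17). The urea cycle enzymes Cps1 (adjusted p = 0.114) and Otc (adjusted p = 0.102) did not pass.

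Amino acid catabolism rose in some genes and fell in others: 7 rose and 3 fell of 54 tested (median log2 fold change 0.1), with counts of 13 and 1 after median-ratio scaling, 3 and 1 without WT replicates 2 and 5. This was 13% higher and 5.56% lower, against 3.08% and 13.9% of all genes. Cth, which makes cysteine, had values of 236.9, 222.7, 299.8, 254.8 and 222.0 in LFABP-/- livers, against 158.8, 154.1, 162.4, 188.8 and 168.1 in WT livers. Agxt2, an aminotransferase of mitochondria, had values of 117.8, 122.1, 126.8, 135.3 and 110.4 in LFABP-/- livers, against 97.3, 87.6, 84.3, 78.2 and 82.6 in WT livers. Both were higher without overlap (0.56, adjusted p = 0.0127 for Cth and 0.51, adjusted p = 0.0108 for Agxt2, as log2 fold changes). Csad, which makes hypotaurine on the way to taurine, had values of 22.2, 14.7, 39.6, 29.8 and 20.7 in LFABP-/- livers, against 53.7, 209.2, 26.4, 137.4 and 249.6 in WT livers. It fell (log2 fold change -2.04 ± 0.56 (SE), adjusted p = 0.0463) with overlap through WT replicate 3, and lost the call without WT replicate 2 (adjusted p = 0.121).

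Genes of the drug-metabolizing P450 list were called in both directions, with a share of decreases near that of all genes. The list for families 1 to 3 also held Cyb5a, which rose (0.38, adjusted p = 0.0532), so its counts are not of P450 genes alone. In this list 3 rose and 5 fell of 38 tested (median log2 fold change 0.01). This was 7.89% higher and 13.2% lower, against 3.08% and 13.9% of all genes. The counts were 2 and 4 after median-ratio scaling, 1 and 5 without WT replicates 2 and 5. Por, the reductase that feeds electrons to all microsomal P450s, had values of 125.9, 277.6, 213.6, 218.8 and 187.5 in LFABP-/- livers, against 411.5, 367.1, 362.5, 523.1 and 374.9 in WT livers. It was lower in every LFABP-/- liver (log2 fold change -1.02 ± 0.19 (SE), adjusted p = 0.0148). Cyp3a59 (-0.89, adjusted p = 0.0112), Cyp2c67 (-0.57, adjusted p = 0.0246) and Cyp2c68 (-0.56, adjusted p = 0.0334) fell and Cyp2d9 (0.65, adjusted p = 0.0942) rose, while Cyp2b10 (adjusted p = 0.982) and Cyp2e1 (adjusted p = 0.359) did not pass. Members of these families are close in sequence and their values are uncertain to that extent. Of conjugation and NRF2 genes 4 rose and 0 fell of 53 tested (median log2 fold change 0.04): Sult1c2 (0.79, adjusted p = 0.0168), Tpmt (0.44, adjusted p = 0.0351), Gstk1 (0.4, adjusted p = 0.0365) and Mgst1 (0.37, adjusted p = 0.0677). These shares were 7.55% higher and 0% lower, against 3.08% and 13.9% of all genes. Female-biased liver genes did not move as Cyp2a4 did: 1 rose and 3 fell of 15 tested (median log2 fold change -0.28). That was 6.67% higher and 20% lower, against 3.08% and 13.9% of all genes. Of 28 male-biased genes 1 rose and 1 fell (3.57% each way), and none was called after median-ratio scaling.

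Several chaperones of the endoplasmic reticulum (ER) rose. When unfolded proteins build up in the ER, the sensors ATF6, IRE1 and PERK raise chaperones such as Hspa5. Of this list and the amino acid stress genes 6 rose and 1 fell of 32 tested (median log2 fold change 0.23), and the counts were 7 and 0 after median-ratio scaling, 2 and 0 without WT replicates 2 and 5. The share that rose was 18.8%, against 3.08% of all genes. Hspa5 (BiP) had values of 837.0, 420.2, 421.2, 474.5 and 532.0 in LFABP-/- livers, against 307.4, 192.4, 211.9, 410.8 and 276.4 in WT livers. Manf, a secreted ER stress protein, had values of 122.6, 56.2, 59.9, 84.3 and 92.5 in LFABP-/- livers, against 39.3, 18.6, 25.9, 52.9 and 33.7 in WT livers. All LFABP-/- livers were above all WT livers for both (0.94, adjusted p = 0.0344 for Hspa5 and 1.3, adjusted p = 0.022 for Manf, as log2 fold changes), and LFABP-/- replicate 1 was the highest. Without WT replicates 2 and 5 the call of Hspa5 was lost (adjusted p = 0.125) and that of Manf was kept (adjusted p = 0.0807). Hsp90b1 (0.5, adjusted p = 0.0556), Dnajb9 (0.67, adjusted p = 0.0716), Calr (0.41, adjusted p = 0.0855) and the transcription factor Cebpb (0.44, adjusted p = 0.0485) rose as well, and Ern1, which encodes IRE1, fell (-0.42, adjusted p = 0.0803). Atf4 did not pass (adjusted p = 0.658).

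The promoters of the called chaperones that hold the ER stress response element, CCAAT and CCACG with 9 bases between them (capitals, either strand) are shown because these genes rose together. They are the 250 bases before each start from RefSeq in GRCm38.p6: Hspa5 at chr2:34771840-34772089, + strand, Hsp90b1 at chr10:86705445-86705694, - strand and Calr at chr8:84846932-84847181, - strand.

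Hspa5: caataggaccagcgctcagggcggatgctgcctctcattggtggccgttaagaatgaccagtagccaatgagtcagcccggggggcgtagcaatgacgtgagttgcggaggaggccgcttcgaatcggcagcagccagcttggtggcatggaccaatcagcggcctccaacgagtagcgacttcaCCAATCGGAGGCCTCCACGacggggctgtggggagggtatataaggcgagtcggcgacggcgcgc
Hsp90b1: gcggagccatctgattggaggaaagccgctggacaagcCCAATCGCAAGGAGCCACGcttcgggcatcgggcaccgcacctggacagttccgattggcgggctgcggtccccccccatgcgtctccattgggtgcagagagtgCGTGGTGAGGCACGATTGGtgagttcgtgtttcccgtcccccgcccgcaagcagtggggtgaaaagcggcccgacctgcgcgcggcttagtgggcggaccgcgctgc
Calr: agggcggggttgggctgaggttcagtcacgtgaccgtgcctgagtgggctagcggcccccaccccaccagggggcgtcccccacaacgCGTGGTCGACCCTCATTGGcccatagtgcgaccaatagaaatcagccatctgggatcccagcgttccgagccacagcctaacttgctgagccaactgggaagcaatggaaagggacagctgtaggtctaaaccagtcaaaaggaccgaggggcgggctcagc

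The element was found in 37 of 32851 windows (0.113%), in 6 of the 29 tested genes of the list with a window and in 3 of its 6 called genes with a window. A match describes the letters only, and Dnajb9, Cebpb and Ern1 had none in these windows. The list was chosen with earlier results of these data known, so these counts are a description and no test of shared control.

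Some immediate early genes, which respond within minutes to hormones and stress, rose. Of the list 5 rose and 0 fell of 30 tested (median log2 fold change 0.36), and the counts were 8 and 0 after median-ratio scaling, 2 and 0 without WT replicates 2 and 5. The share that rose was 16.7%, against 3.08% of all genes. Nr4a1 had values of 97.4, 22.6, 63.8, 55.1 and 21.6 in LFABP-/- livers, against 9.4, 5.8, 9.9, 27.5 and 12.4 in WT livers. Fos had values of 31, 8.7, 6.2, 22 and 12 in LFABP-/- livers, against 4.5, 3.8, 3.3, 5.3 and 5.8 in WT livers. Fos was higher in all LFABP-/- livers (log2 fold change 1.5 ± 0.37 (SE), adjusted p = 0.033), and WT replicate 4 overlapped for Nr4a1 (log2 fold change 1.91 ± 0.47 (SE), adjusted p = 0.033). Without WT replicates 2 and 5 the call of Nr4a1 was lost (adjusted p = 0.119) and that of Fos was kept (adjusted p = 0.0977). Dusp1 (log2 fold change 1.02, adjusted p = 0.0455), Zfp36 (0.59, adjusted p = 0.0486) and Klf10 (0.69, adjusted p = 0.0851) also rose, the call of Dusp1 being lost without LFABP-/- replicate 4 or WT replicate 2 (adjusted p up to 0.106). The glucocorticoid-induced Tsc22d3 rose (0.74, adjusted p = 0.0495), and among clock genes Bhlhe40 (0.6, adjusted p = 0.0694) and Bhlhe41 (0.65, adjusted p = 0.099) rose and Nr1d2 fell (-0.29, adjusted p = 0.0608). The hour and order of tissue collection are not given in the labels, and their part in these genes was not tested.

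Most transcripts of the mitochondrial genome rose: 13 rose and 0 fell of 15 tested (86.7% higher, against 3.08% of all genes, median log2 fold change 0.41). The counts were 14 and 0 after median-ratio scaling, 4 and 0 without WT replicates 2 and 5, and 4 rose after removal of the trend with length and GC content. The complex I subunit mt-Nd6 had values of 4897.6, 5672.5, 5147.0, 5595.6 and 5675.0 in LFABP-/- livers, against 3993.9, 3053.0, 3348.9, 3446.7 and 3283.8 in WT livers. No library of WT reached the lowest LFABP-/- liver (log2 fold change 0.66 ± 0.09 (SE), adjusted p = 0.00888). Of nuclear-encoded respiratory chain subunits, most of them short genes, 5 rose and 0 fell of 76 tested (median log2 fold change 0.16), and the counts were 46 and 0 after median-ratio scaling, 2 and 0 without WT replicates 2 and 5. On the deposited scale 6.58% of these subunits rose, against 3.08% of all genes. The complex I subunit Ndufb3 had values of 137.9, 134.6, 134.3, 179.7 and 166.8 in LFABP-/- livers, against 115.0, 95.8, 109.9, 100.7 and 91.9 in WT livers and did not overlap (log2 fold change 0.55 ± 0.11 (SE), adjusted p = 0.0161). Cycs, which encodes cytochrome c (log2 fold change 0.46, adjusted p = 0.0283), and Atp5g3 (0.3, adjusted p = 0.0556) also rose. Esrra, a nuclear receptor that drives mitochondrial genes, had values of 42.3, 51.1, 48, 57.2 and 60.6 in LFABP-/- livers, against 30.7, 34.4, 34.5, 32.5 and 33.2 in WT livers and was higher in every LFABP-/- liver (log2 fold change 0.63 ± 0.1 (SE), adjusted p = 0.00967).

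Several complement genes fell. Of complement genes 1 rose and 8 fell of 32 tested (median log2 fold change -0.23), and the counts were 1 and 3 after median-ratio scaling, 0 and 5 without WT replicates 2 and 5. The share of complement genes that fell was 25%, against 13.9% of all genes. C3, the central component, had values of 1843.0, 1710.4, 2072.8, 1795.4 and 1637.6 in LFABP-/- livers, against 2553.2, 2798.6, 2587.0, 3061.9 and 2826.9 in WT livers. The groups did not overlap (log2 fold change -0.61 ± 0.09 (SE), adjusted p = 0.00896), and Serping1 (-0.34, adjusted p = 0.0168) and C1ra (-0.28, adjusted p = 0.0286) fell as well, while the inhibitor Cd59a rose (0.42, adjusted p = 0.053). Of interferon-induced genes 0 rose and 2 fell of 38 tested (median log2 fold change -0.46), of antigen presentation genes 0 rose and 2 fell of 20 tested (median log2 fold change -0.36) and of matrix genes 0 rose and 2 fell of 31 tested (median log2 fold change -0.39). The shares that fell (5.26%, 10% and 6.45%, in that order) were below the 13.9% of all genes. These medians rested in part on WT replicate 5: without it they were -0.24 for interferon-induced, -0.21 for antigen presentation, -0.17 for matrix and -0.08 for complement genes, against -0.05 for all genes. Irgm2 had values of 12.7, 17.4, 16.8, 17 and 19.1 in LFABP-/- livers, against 80.2, 42.7, 25.1, 20.2 and 55.9 in WT livers (log2 fold change -1.24 ± 0.32 (SE), adjusted p = 0.0391). Without WT replicates 2 and 5, 3 matrix genes rose and 1 fell, and none of the interferon-induced or antigen presentation genes was called.

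Markers of the cell types a liver sample can hold are given beside those counts. The summed level of 18 tested Kupffer cell and macrophage markers was 454 to 724 in LFABP-/- livers and 437 to 1748 in WT livers, with a median log2 fold change of -0.29, or 0.00 without WT replicate 5, and Clec4f at adjusted p = 0.976, and that of 19 stellate cell markers 337 to 384 in LFABP-/- livers and 315 to 594 in WT livers. Sinusoidal endothelial markers summed to 240 to 296 in LFABP-/- and 243 to 328 in WT livers, cholangiocyte markers to 650 to 804 in LFABP-/- and 604 to 1234 in WT livers, and lymphocyte markers to 4.7 to 9.7 in LFABP-/- and 5.8 to 22.1 in WT livers. Of 20 hepatocyte markers 0 rose and 7 fell (35%, against 13.9% of all genes), summing to 131697 to 153416 in LFABP-/- and 155612 to 184492 in WT livers. After median-ratio scaling 3 of the 20 fell, against 7.20% of all genes. Alb had values of 47482.5, 49532.2, 52190.5, 41266.2 and 55105.3 in LFABP-/- livers, against 62265.2, 75660.7, 62451.2, 76062.5 and 76918.6 in WT livers (log2 fold change -0.52 ± 0.12 (SE), adjusted p = 0.0242). Its call was lost without WT replicates 2 and 5 (adjusted p = 0.104). In bulk tissue, fewer cells of a type and less RNA per cell cannot be told apart.

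**Figure D4:**
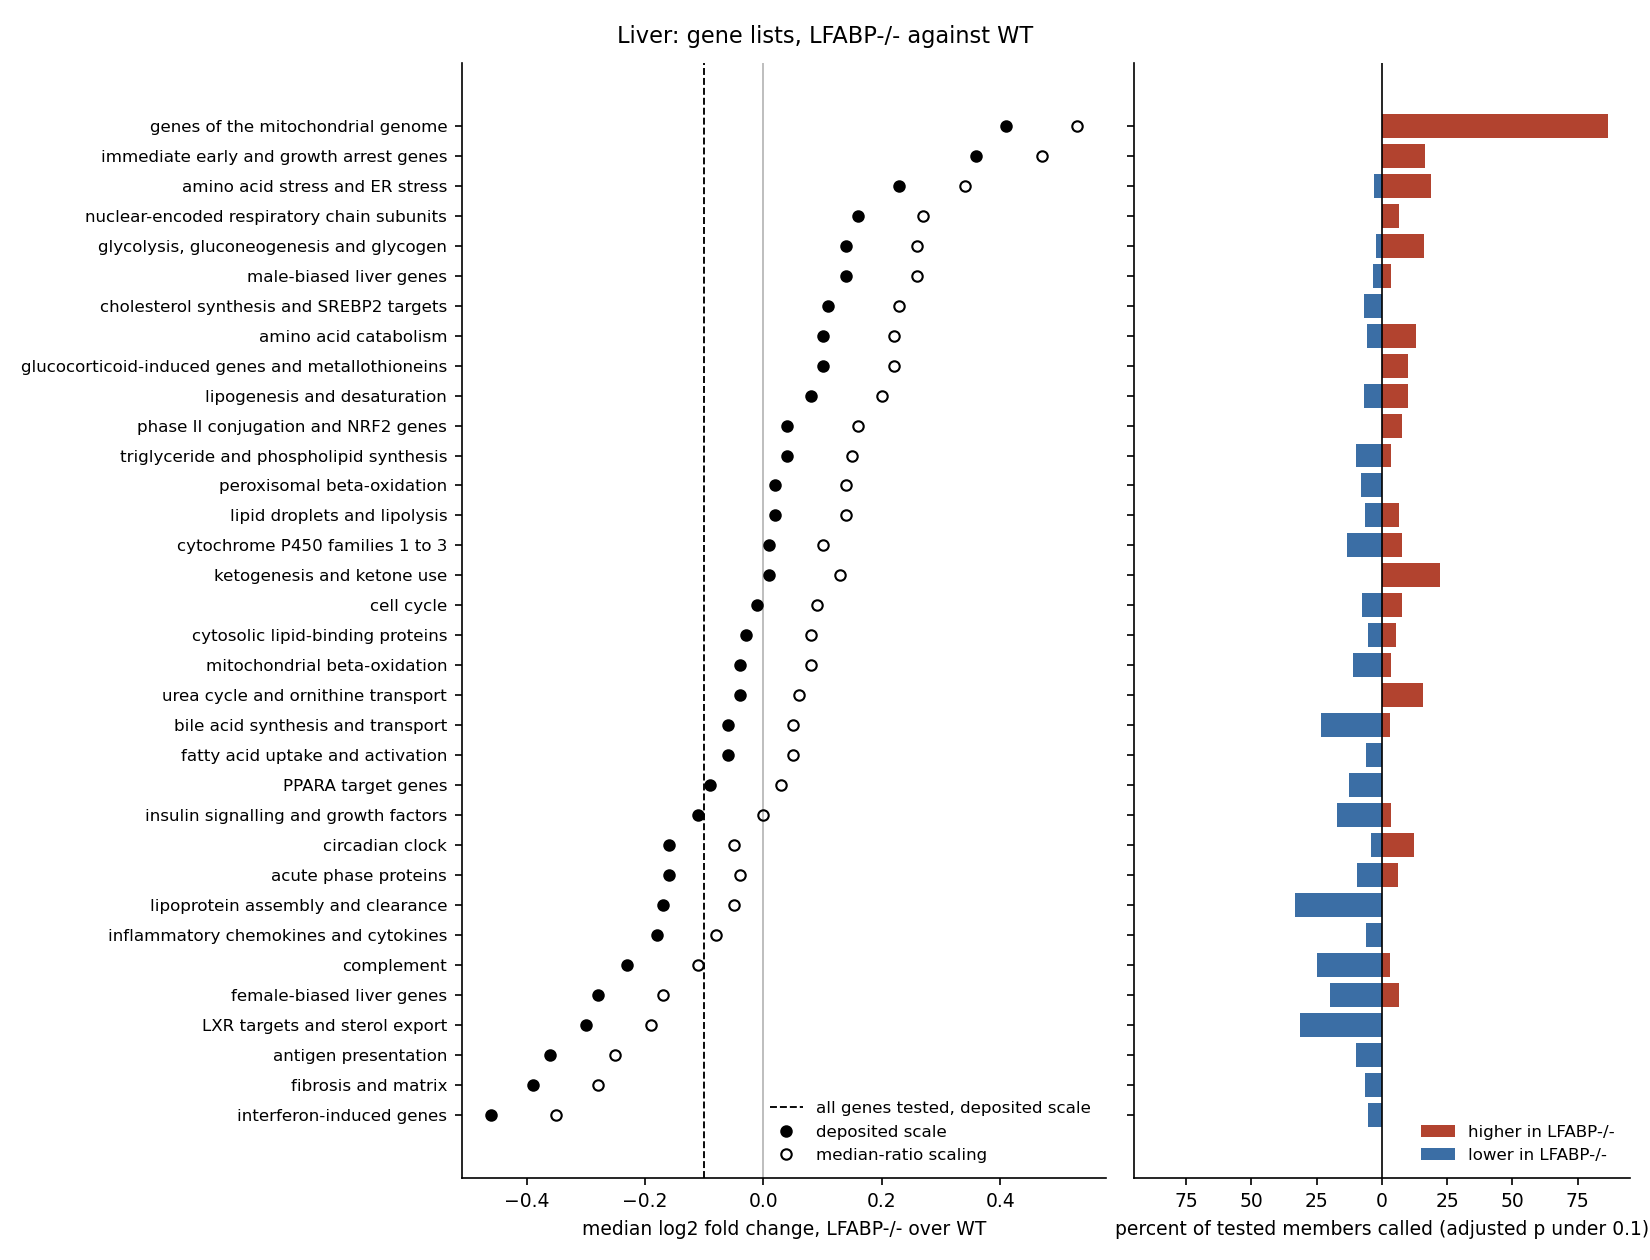
Median log2 fold change of LFABP-/- over WT livers for each pathway list, cell type markers and structural RNAs not drawn (left; filled on the deposited scale, open after median-ratio scaling, dashed line at the median of all genes tested, -0.10) and the percent of tested members called higher (red) or lower (blue) in LFABP-/- livers (right). Among the lists drawn, genes of the mitochondrial genome have the highest median (0.41) and interferon-induced genes the lowest (-0.46), but without WT replicate 5 the interferon-induced median (-0.24) lies above that of female-biased liver genes (-0.34).

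Whether the genotype effect in the liver differed from that in fat of the same mice was tested in 1 fit of the 30 libraries. The effect differed from iBAT for 1974 of 10194 genes (19.4%) and from iWAT for 380 of 10927 genes (3.48%). The liver effect was above that in iBAT for 586 genes and below it for 1388, and above that in iWAT for 81 and below it for 299; after quantile scaling within each tissue these were 1451 and 1203 against iBAT and 177 and 138 against iWAT. Osgin1 fell in liver and rose in iBAT: its log2 fold change was -1.57 in liver, 1.24 in iBAT and 0.57 in iWAT, and the liver effect was below that in iBAT (difference -2.82 ± 0.36 (SE), adjusted p = 1.28e-05) and iWAT (difference -2.14 ± 0.36 (SE), adjusted p = 0.00129). Csad fell in liver, and its effect there was below that in iBAT (difference -2.02 ± 0.54 (SE), adjusted p = 0.0119). Cpt1a (difference -1.09 ± 0.25 (SE), adjusted p = 0.00408) and Klb (difference -1.48 ± 0.3 (SE), adjusted p = 0.0017) rose in iBAT while they fell in liver. Hepatocyte genes were higher in LFABP-/- iBAT, where their levels were far below those in liver: Alb averaged 532.7 in LFABP-/- and 22.62 in WT iBAT (log2 fold change 4.94, adjusted p = 0.00447), Apoa1 172.7 in LFABP-/- and 8.62 in WT iBAT (4.45, adjusted p = 0.00391), and Fgb, Cps1 and Mup20 rose there too. Fabp1 itself averaged 10.34 in LFABP-/- and 3.16 in WT iBAT (adjusted p = 0.276). The part of liver RNA in the differences from iBAT was not tested. Ugp2 was higher in liver relative to iBAT (difference 0.85 ± 0.17 (SE), adjusted p = 0.00133), and so was Slc25a15 (difference 0.62 ± 0.2 (SE), adjusted p = 0.0348).

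Of the ER stress genes, Hspa5 (difference 0.87 ± 0.24 (SE), adjusted p = 0.0598) and Manf (difference 1.02 ± 0.29 (SE), adjusted p = 0.0752) differed from iWAT. Hsp90b1 (difference 0.74, adjusted p = 0.0286) and Calr (difference 0.74, adjusted p = 0.0125) did so too, and Dnajb9 did not (adjusted p = 0.36). Against iBAT, where Hspa5 and Manf also rose, the difference did not pass for Hspa5 (difference 0.19 ± 0.24 (SE), adjusted p = 0.653) or Manf (difference 0.42 ± 0.29 (SE), adjusted p = 0.377). It passed for Hsp90b1 (difference 0.56, adjusted p = 0.0313), and not for Calr (adjusted p = 0.202) or Dnajb9 (adjusted p = 0.627). Esrra rose more in iWAT, with a log2 fold change of 1.61, than in liver (difference -0.98 ± 0.16 (SE), adjusted p = 0.000718). Of the genes with the smallest p, the differences from iBAT included Rhod, Usp10, Car3, Litaf, Acsl5 and Desi1, of which Car3 was above (3.48 ± 0.4) and the others below, by -2.45 ± 0.25 for Rhod and -1.3 ± 0.14 for Usp10 (difference ± SE). Those from iWAT were n-R5-8s1, Gm24601, Rn7s2, Lars2, Mir6236 and CT010467.1, of which n-R5-8s1 is a ribosomal RNA, all below, n-R5-8s1 by -3.33 ± 0.31. All of these rose in LFABP-/- iWAT, with log2 fold changes from 1.84 for Lars2 to 3.27 for Rn7s2. In liver their log2 fold changes ran from -0.34 for Mir6236 to -0.86 for Rn7s2, and Rn7s2, Lars2, Mir6236 and CT010467.1 were not called there.

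**Figure D5:**
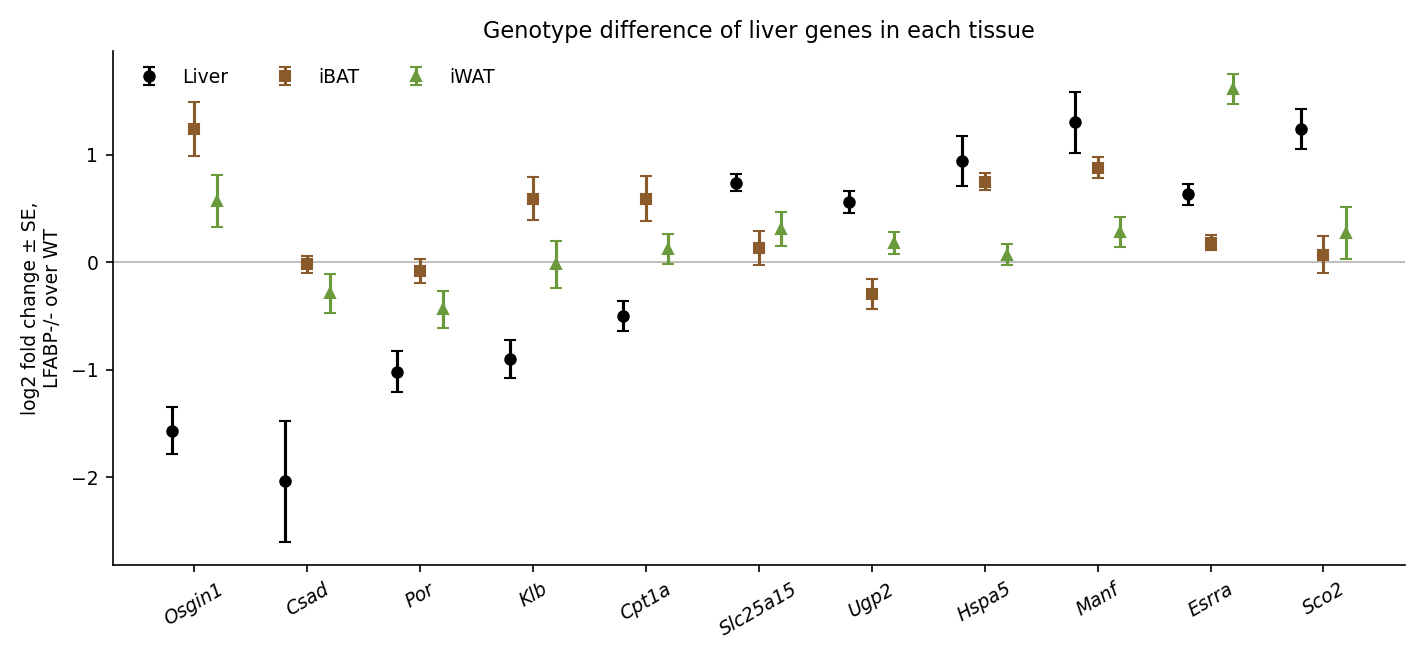
Log2 fold change of LFABP-/- over WT with its SE for 11 genes in liver (circles), iBAT (squares) and iWAT (triangles) of the same mice. Osgin1 lies at -1.57 in liver and at 1.24 in iBAT, and Esrra lies at 0.63 in liver and at 1.61 in iWAT.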

How the data were processed

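RNA of 10 livers (5 LFABP-/-, 5 WT) was compared. The authors selected poly(A) RNA, aligned single reads with CLC Genomics Workbench (GRCm38, Ensembl annotation) and deposited 1 table of 41549 genes. Its headers say RPKM, but the deposited values are on the TPM scale, since the liver libraries all sum to between 999967.3 and 999983.4, and they are given to 1 decimal. Read depth is unknown, so no counting error is given.

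Genes with a mean of at least 1 over the 10 libraries (11629) were compared by limma (version 3.58.1, R 4.3.3) after taking log2(value + 0.5) (trend, two-sided, Benjamini-Hochberg adjusted p under 0.1). This scale understates the change of low genes. Mice are the replicates. Exact permutation of the 10 livers cannot go below p = 0.0079. Tissue differences were fitted over 30 libraries with mouse as a random block. Lists of genes (49) and the members were chosen with earlier results of these data known. List members are described by counts, without a test of the list.

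Named genes were Fabp1, Slc25a15, Wdfy1 and Nnt, the 12 largest called changes each way with no overlap and a mean above 5 in a group, list members with the smallest p or a call, genes of known role, called genes within 10 Mb of Fabp1, and the 6 smallest p per tissue difference with a group mean above 20; not all that qualify are printed, and some genes counted in the lists are not reported here. Exon lengths came from GENCODE M21. In simulated data made from these libraries, with 11629 genes, 46%, 84% and 100% of genes changed by 0.5, 1 and 2 (log2) were recovered. The simulated noise was independent between genes and libraries. It held no outlying library, trend with gene length or shift in RNA composition, so these rates need not hold for the real libraries. Libraries were distinct (at most 4.67% of values identical between mice of a genotype). Tables were handled in pandas 2.3.3 with NumPy 2.4.6 (Python 3.11.15), and plots drawn in matplotlib 3.10.9.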

Additional observations from a re-analysis of the deposited data

Results flagged for a closer look

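In 8 of 84 groups of 5 livers (42 genes in 2 genotypes), 1 library lay far from the others of its genotype; chance gives about 1 in 20 groups. They were Fabp1 in LFABP-/- replicate 1 (51.8, the highest), Fabp1 in WT replicate 3 (9166, the lowest), Gm44427 in WT replicate 2 (3.0, the highest), Cyp2a4 in WT replicate 5 (21.8, the highest), Hspa5 in LFABP-/- replicate 1 (837, the highest), Fabp5 in LFABP-/- replicate 5 (75.1, the highest), Fabp7 in WT replicate 5 (7.5, the highest) and Scd1 in LFABP-/- replicate 5 (7254, the highest). The liver genotype effect was above the iBAT effect, in log2 units, for Slc25a15 (0.62), Sco2 (1.17), mt-Nd6 (0.60), Oat (0.87), Esrra (0.45), Ugp2 (0.85) and Ndufb3 (0.78). The liver genotype effect was below the iBAT effect, in log2 units, for Fabp1 (-13.22), Cyp2a5 (-2.41), Cpt1a (-1.09), G6pc (-2), Osgin1 (-2.82), Csad (-2.02), Fabp5 (-2.15), Por (-0.94), Klb (-1.48), Alb (-5.46), Scd1 (-1.18) and Apob (-3.37). Several of these genes were low in WT iBAT and higher in LFABP-/- iBAT: Alb averaged 532.7 in LFABP-/- and 22.62 in WT iBAT, G6pc 6 in LFABP-/- and 0.22 in WT iBAT, Apob 5.26 in LFABP-/- and 0.16 in WT iBAT, and Cyp2a5 2.92 in LFABP-/- and 0.14 in WT iBAT. The part of liver RNA in those libraries in these differences was not tested. The liver genotype effect was above the iWAT effect, in log2 units, for Hspa5 (0.87), Manf (1.02), Sco2 (0.97), mt-Nd6 (0.67), Oat (1.02) and Hectd2os (1.86). The liver genotype effect was below the iWAT effect, in log2 units, for Fabp1 (-9.74), Osgin1 (-2.14), Csad (-1.75) and Esrra (-0.98). Each of these differences passed an adjusted p under 0.1 in the fit of all 30 libraries.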

How the results depend on the processing

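The count of genes called higher was 358 and lower 1611. Without a filter, 227 were higher; median-ratio scaling gave 1160 higher and 837 lower, quantile scaling 938 and 812, and after rescaling without the mitochondrial genome and the 10 most abundant genes 548 were higher. Library weights gave 542 higher. An adjusted p under 0.05 gave 152 higher and 860 lower. Leaving out 1 library gave 111 to 524 higher and 635 to 1815 lower. The replicate block gave 995 lower; the replicate numbers do not pair mice of the genotypes (correlation of deviations -0.06 to 0.13). Chosen after seeing the data, removal of the length and GC trend gave 841 higher and 707 lower, leaving out WT replicates 2 and 5 gave 652 lower, and the G30 and G32 libraries alone gave 10 and 10 higher and 24 and 12 lower. The cause was not tested. Within 20 Mb of Fabp1, 34 of 170 genes were called (20%), and within 10 Mb 8 of 39 (20.5%), against 16.9% of all genes. Of 185 called genes that were followed, 71 kept the call whichever library was left out and 49 under every alternative except those chosen after seeing the data, and no called gene turned its direction. Depth is unknown, so small differences in low genes cannot be judged.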

Other observations

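Car3, a carbonic anhydrase that is high in adipocytes and also made in liver, rose (log2 fold change 0.85 ± 0.23 (SE), adjusted p = 0.0433), averaging 1497 in LFABP-/- and 825.9 in WT livers, and the call was lost without WT replicate 2 (adjusted p = 0.103) and without WT replicates 2 and 5 (adjusted p = 0.146). Car3 was the only called gene of 11 adipocyte markers tested (9.09% higher, against 3.08% of all genes). It made up most of their summed level, whose median was 1526 in LFABP-/- and 968 in WT livers. Adipoq was at 2.9 to 7.6 in LFABP-/- and 0.8 to 6.5 in WT livers (adjusted p = 0.762). Of 26 pericentral hepatocyte genes 3 rose (11.5%, against 3.08% of all genes) and 0 fell, and of 24 periportal genes 0 rose and 3 fell (12.5%, against 13.9% of all genes). Without WT replicates 2 and 5, 1 pericentral gene rose and 0 fell, and 1 periportal gene rose and 2 fell. The counts after median-ratio scaling were 3 and 0 for pericentral and 1 and 2 for periportal genes.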
